A study of Rattus norvegicus with 2 samples.

Results

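Genes of blood coagulation and of plasminogen activation were followed through the cardiac cells of neonatal rats after a short exposure to bacterial lipopolysaccharide (LPS). The 8 genes, *F3*, *Thbd*, *Procr*, *Tfpi*, *Tfpi2*, *Plat*, *Plau* and *Plaur*, were chosen by symbol from the 25399 genes of the deposited gene list. Hearts of Sprague-Dawley rats aged 1 to 3 days, males and females pooled, were digested with trypsin, and a Percoll gradient was used to enrich intrinsic cardiac adrenergic (ICA) cells, which are heart cells that make catecholamines. The isolated cells were plated and cultured, and received saline (control) or 1 µg/mL LPS for 2 h. They were then digested again, with trypsin and EDTA, and each condition gave 1 library of single-cell 3′ RNA tags. Expression was measured as unnormalized counts of unique molecular identifiers (UMIs), each standing for 1 captured RNA molecule.

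*F3* encodes tissue factor, the membrane protein that starts the clotting cascade when it meets factor VII, and *Tfpi* and *Tfpi2* encode Kunitz-type protease inhibitors, of which the first blocks the tissue factor complex and factor X. Thrombomodulin (*Thbd*) and the endothelial protein C receptor (*Procr*) sit on vessel walls, where they turn thrombin towards the activation of the anticoagulant protein C. Tissue-type and urokinase-type plasminogen activators (*Plat*, *Plau*) make plasmin, which dissolves fibrin, and the urokinase receptor (*Plaur*) holds urokinase at the cell surface. Monocytes and macrophages exposed to LPS are known for tissue factor, and resting endothelium for thrombomodulin and the protein C receptor.

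The control library held 11531 cells with a median of 12479 UMIs per cell and the LPS library 12689 cells with a median of 9432, and 194 barcodes occurred in both. Cells were grouped by the 11 clusters that the authors deposited. They named clusters 0, 1 and 7 fibroblasts, cluster 3 ICA cells and cardiomyocytes, clusters 4 and 5 endothelial cells and cluster 6 macrophages, and gave clusters 2, 8, 9 and 10 no name. The summed macrophage markers reached 2112 and 2833 UMIs per 1000000 (control and LPS) in cluster 6 and at most 54.8 elsewhere, and the endothelial markers 1194 to 1601 in clusters 4 and 5 and at most 189 elsewhere. Cluster 1 was led by genes of dividing cells and cluster 7 by interferon-response genes, cluster 4 by *Gpihbp1* and *Apln*, and cluster 5 by *Selp* and *Plvap*. The labels call all cells ICA cells, but the summed level of *Dbh*, *Th* and *Ddc* reached 75.0 and 81.7 in cluster 3 and at most 8.89 in any other cluster. Cluster 2 had *Rgs5*, *Kcnj8* and *Abcc9* among its 10 leading genes and is called pericyte-like. Its summed smooth muscle markers, at 2430 and 2350, were also the highest of the 11 clusters and above its pericyte markers, at 1221 and 975. Clusters 8, 9 and 10 held between 16 and 81 cells per library and are left out of the order of levels.

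Levels are given as CPM, the UMIs of a gene in a cluster per 1000000 UMIs of that cluster and library. A ratio is the LPS level over the control level. Since each condition is 1 library, nothing was tested against a spread between replicates. The 95% intervals, given in parentheses, describe counting error alone, and effects of LPS and of handling the 2 libraries separately cannot be told apart. A gene was called higher or lower where its level differed by at least 2-fold and it had at least 50 UMIs in the cluster over both libraries. Levels are not compared between genes. The median log2 ratio over the genes with 50 UMIs was -0.31 in cluster 6, -0.13 in cluster 0 and -0.12 in cluster 2, and between -0.09 and 0.04 in the other clusters.

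**Figure D1:**
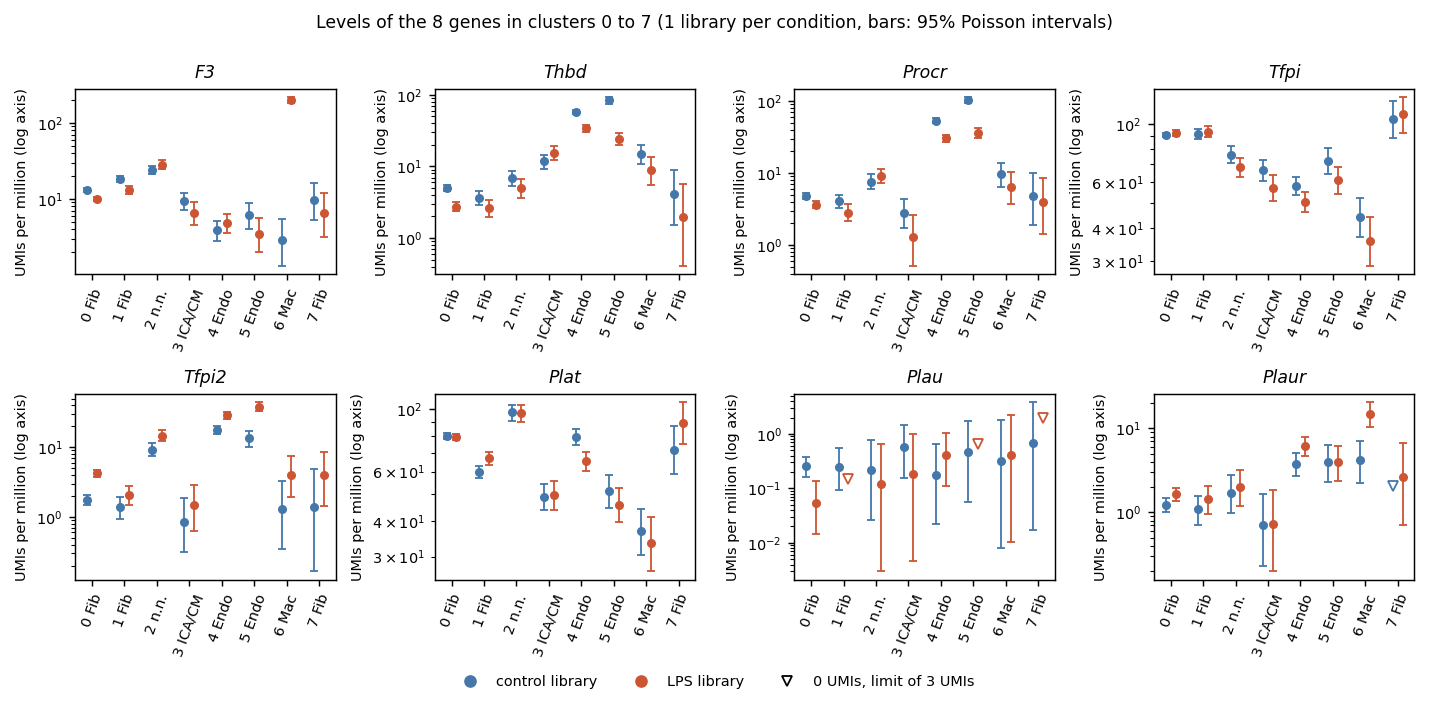
Level of each of the 8 genes (UMIs per 1000000, log axis) in clusters 0 to 7 of the control and LPS libraries, with 95% Poisson intervals and open triangles for the limit of 3 UMIs where a cluster had 0. Fib stands for fibroblast, ICA/CM for ICA cells and cardiomyocytes, Endo for endothelial, Mac for macrophages and n.n. for the pericyte-like cluster without a name. *F3* in LPS macrophages, at 199 CPM, stands above every other cluster, and *Thbd* and *Procr* are high in clusters 4 and 5.

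The promoters of *Procr*, which was lower in LPS endothelium, and of *Plaur*, which was higher in LPS macrophages, are shown because they hold the same short motif, the AP-1 element TGACTCA. In the RefSeq table of the GRCr8 build, 5 of the 8 genes matched a promoter, and *F3*, *Thbd* and *Plat* did not. The stretches below hold the bases just upstream of the annotated start, 5′ to 3′ on the gene's strand, with the AP-1 element in capitals.
Procr, GRCr8 chr3:164714497-164714726, plus strand: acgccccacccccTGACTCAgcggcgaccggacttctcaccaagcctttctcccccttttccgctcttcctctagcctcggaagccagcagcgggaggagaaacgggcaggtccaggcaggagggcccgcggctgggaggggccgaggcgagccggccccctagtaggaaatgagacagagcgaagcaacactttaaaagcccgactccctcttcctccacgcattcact
Plaur, GRCr8 chr1:89181133-89181362, plus strand: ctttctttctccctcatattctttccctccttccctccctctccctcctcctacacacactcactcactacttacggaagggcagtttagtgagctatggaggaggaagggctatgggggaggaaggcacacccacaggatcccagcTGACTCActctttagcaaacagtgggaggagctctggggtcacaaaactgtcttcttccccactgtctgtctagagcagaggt
The element lies at positions -217 to -211 before the start of *Procr* and at -83 to -77 before that of *Plaur*. In all, 5 motifs were searched on both strands of the 250 bases upstream. AP-1 (TGACTCA or TGAGTCA) occurred in 4.05% of 33469 promoters, the NF-kB consensus in 4.24%, the GC box GGGCGG in 30.5%, TATAAA in 12.9% and the E box CACGTG in 5.59%. A GC box was found in the windows of *Tfpi2* and *Plau* and in 1 of the 2 windows of *Tfpi*, and none of the other 4 motifs in any of these. Both windows of *Tfpi*, and the GC box of *Tfpi2*, lie inside the annotated span of the gene and not upstream of it. Such a match describes the letters of the window and not a bound site.

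Among the initiators, *F3* (ENSRNOG00000011800) changed place between the libraries. In control cells its level was highest in the pericyte-like cluster 2, at 24.0 CPM (21.0 to 27.4), followed by the dividing fibroblasts of cluster 1 at 18.4 (16.8 to 20.2) and the fibroblasts of cluster 0 at 13.02 (12.3 to 13.8). Clusters 0, 7, 3, 5, 4 and 6 followed in this order, each not separated from the next by more than counting error, and macrophages came last with 9 UMIs in 281 cells, or 2.89 CPM (1.32 to 5.49). In LPS cells the macrophages came first, with 495 UMIs in 291 cells, or 199 CPM (182 to 217). Their ratio was 68.9 (36.0 to 152), a log2 ratio of 6.11. The width of that interval comes from the 9 control UMIs. Of all *F3* UMIs in clustered cells, macrophages held 0.442% in the control library and 26.5% in the LPS library.

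*F3* did not follow the macrophages elsewhere. It was lower in LPS fibroblasts, from 13.02 to 9.98 CPM in cluster 0 (ratio 0.767, 0.698 to 0.841) and from 18.4 to 13.2 CPM in cluster 1 (ratio 0.716, 0.613 to 0.836), neither of them a 2-fold change. The pericyte-like cells held 24.0 and 28.3 CPM (ratio 1.18, 0.979 to 1.42). The ratio was 0.704 (0.456 to 1.07) in cluster 3 and 1.25 (0.808 to 1.93) in cluster 4, both intervals including no change, and clusters 5 and 7 had fewer than 50 *F3* UMIs. Over all clustered cells the opposite directions left a ratio of 1.10 (1.03 to 1.17).

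Within the macrophages, *F3* was unevenly spread over cells. In the control library 8 of 281 cells (2.85%) held a UMI of it and no cell more than 2. In the LPS library 105 of 291 cells (36.1%, 30.6 to 41.9) did, 33 cells held more than 5 UMIs and the highest 22. The 30 LPS macrophages with the most *F3* UMIs held 69.5% of them. To compare shares of cells at equal depth, 3000 UMIs were drawn at random from each cell (thinning), and 75 LPS cells below that depth dropped out. The thinned share was 0 of 281 control macrophages, which allows up to 1.07% of cells with a UMI at this thinned depth. That 0 came from a single random draw, and a draw of 1500 UMIs per cell gave 0.712%. Of the LPS macrophages, 70 of 290 (24.1%, 19.3 to 29.5) held an *F3* UMI at 3000 UMIs. Endothelial cells of cluster 4, where the mean *F3* level was lowest, gave 0.692% and 0.754% after thinning. Those of cluster 5 gave 1.71% and 0.688%, from median depths of 10171.5 and 9138 UMIs against 8846 and 6908.5 in macrophages.

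**Figure D2:**
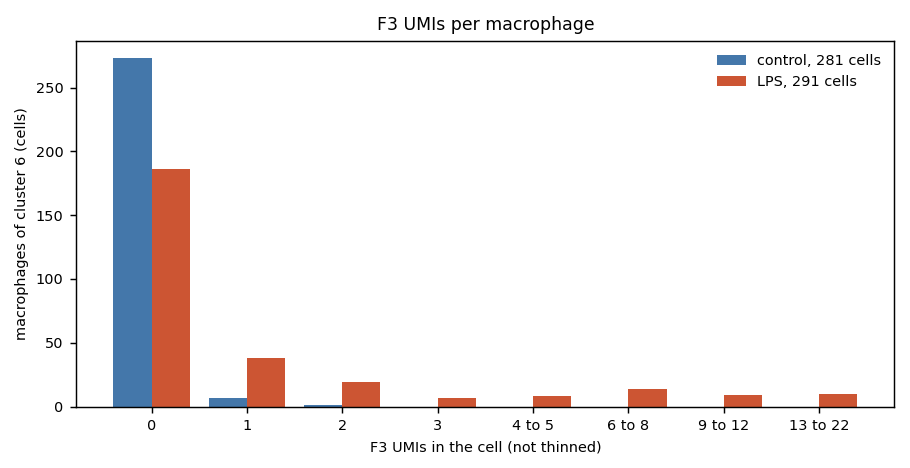
Number of macrophages of cluster 6 (vertical axis) by the count of *F3* UMIs in the cell (horizontal axis, not thinned), for the control library (281 cells) and the LPS library (291 cells). Of the control cells 273 held none and no cell more than 2, while 33 LPS cells held more than 5.

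Droplets carry free RNA from broken cells, so the level of a gene in a cluster was set beside the level there of markers of its likely source. All 7 fibroblast markers had UMIs in macrophages, with a summed level at 33.4% of that in cluster 0 in the control library and 27.8% in the LPS library. *F3* in control macrophages stood at 22.2% (10.1 to 42.3) of its level in cluster 0, and in LPS macrophages at 1996% (1777 to 2239). In the opposite direction, *F3* in LPS clusters 0 to 5 stood at 1.77% to 14.2% of the macrophage level, where the summed macrophage markers stood at 0.387% to 1.35%. Of the 4 platelet markers, *Pf4* gave 2999 and 3601 CPM in macrophages, while *Ppbp*, *Gp9* and *Itga2b* gave at most 3 UMIs each there. The 4 neutrophil markers summed to 11.9 and 23.3 CPM in macrophages, most of it from *S100a8* with 35 and 51 UMIs. *S100a9* gave 1 and 7 UMIs there, *Csf3r* 1 and 0, and *Mpo* 0 in both libraries.

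Thrombomodulin was highest in the endothelial clusters of both libraries and lower after LPS. *Thbd* (ENSRNOG00000004687) stood at 84.0 CPM (75.5 to 93.2) in control cluster 5 and 57.7 (53.3 to 62.3) in control cluster 4, and at most 14.8 in the other clusters named above. In LPS cells it stood at 24.0 CPM (19.7 to 28.9) in cluster 5 and 34.1 (30.5 to 38.0) in cluster 4. The ratio was 0.285 (0.228 to 0.354) in cluster 5, from 357 to 109 UMIs, and 0.591 (0.516 to 0.676) in cluster 4, from 642 to 332 UMIs. The 6 endothelial markers summed to 1386 CPM in control and 1194 in LPS cells of cluster 5, with 4 of them lower, such as *Kdr* (50.8 and 27.2 CPM) and *Tek* (191 and 117 CPM), and *Cdh5* and *Esam* higher, and their part in the result was not tested. The order of the endothelial clusters in *Thbd* turned. Cluster 5 stood at 1.46 times the level of cluster 4 (1.28 to 1.66) in control cells and at 0.702 times (0.560 to 0.874) in LPS cells.

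The share of cells with a *Thbd* UMI moved the same way. After thinning it was 21.1% (16.98 to 25.8) of 350 control cells and 6.42% (4.31 to 9.15) of 436 LPS cells in cluster 5, and 17.6% and 8.92% in cluster 4. Before thinning, cluster 5 gave 49.4% of 350 control cells and 17.6% of 443 LPS cells. Cluster 7, with the lowest mean level, gave 0.962% and 0.694% after thinning, from median depths of 12785.5 and 9681 UMIs.

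Outside the endothelium *Thbd* was low, and its level there was set beside that of the endothelial markers. In cluster 0 it went from 5.01 to 2.74 CPM (ratio 0.547, 0.461 to 0.647), which was 5.96% and 11.4% of its level in cluster 5. The 6 endothelial markers with a match in the gene list stood there at 2.66% to 8.92% of cluster 5 in control cells. In LPS cells they stood at 2.71% to 11.5%. Summed, they stood at 6.10% and 5.18%, and the part of free endothelial RNA in the *Thbd* values was not tested. In cluster 3 *Thbd* stood at 11.7 CPM in control and 15.5 in LPS cells, with a ratio of 1.32 (0.966 to 1.81). That was 14.0% (10.9 to 17.8) and 64.8% (48.2 to 86.8) of its level in cluster 5. These percentages rest on cluster 5, where *Thbd* itself stood at 84.0 CPM in control and only 24.0 in LPS cells. Of the endothelial markers in cluster 3, 5 stood at 3.61% to 9.89% of cluster 5 in both libraries, and *Kdr*, a receptor for vascular endothelial growth factor, at 45.9% and 143%. Macrophages held 46 and 22 *Thbd* UMIs (14.8 and 8.85 CPM), with a ratio of 0.599 (0.343 to 1.02).

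*Procr* (ENSRNOG00000019330), the receptor that presents protein C to the thrombomodulin complex, followed the same endothelial pattern. It stood at 103 CPM (93.9 to 113) in control cluster 5 and 53.2 (49.0 to 57.7) in control cluster 4. In LPS cells the values were 35.8 CPM (30.5 to 41.8) and 30.2 (26.8 to 33.9). The ratio was 0.347 (0.288 to 0.416) in cluster 5, from 439 to 163 UMIs, and 0.568 (0.492 to 0.654) in cluster 4, from 592 to 294 UMIs. Cluster 5 exceeded cluster 4 by 1.94 times (1.71 to 2.20) in control cells, while in LPS cells the 1.19 times (0.973 to 1.44) was within counting error.

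After thinning, 25.4% (20.9 to 30.3) of control and 11.2% (8.43 to 14.6) of LPS cells of cluster 5 held a *Procr* UMI, and 15.1% and 7.91% of cluster 4. Cluster 3, with its lowest mean level, gave 0.837% and 0.324%, from median depths of 7526 and 5272.5 UMIs. Fibroblasts of cluster 0 went from 4.77 to 3.65 CPM (ratio 0.764, 0.654 to 0.892), which was 4.62% and 10.2% of the level in cluster 5. The 6 endothelial markers, summed, stood there at 6.10% and 5.18%. In LPS cells *Kdr* alone, at 11.5%, stood above the *Procr* value, and the part of free RNA was not tested. The pericyte-like cells held 7.58 and 9.17 CPM, and their ratio of 1.21 (0.865 to 1.69) did not leave the counting error. *Thbd* and *Procr* were seen together in a thinned cell no more often than their separate shares give, with 19 cells against 19.1 in control cluster 4, and 15 against 18.8 in control cluster 5.

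**Figure D3:**
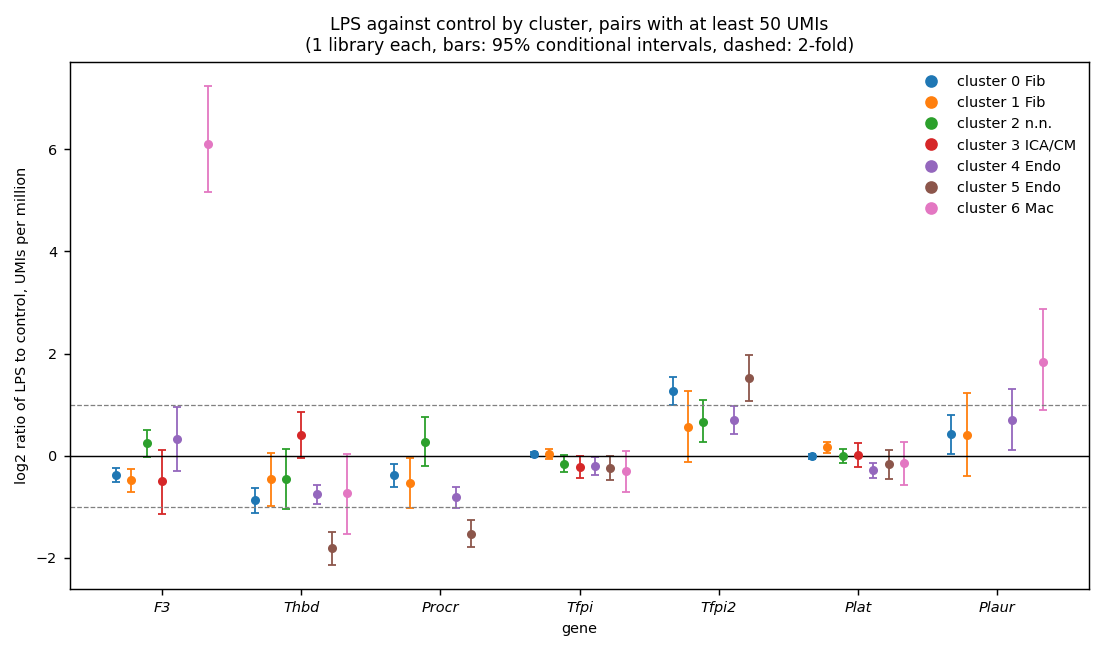
The log2 ratio of LPS to control (vertical axis) for each gene (horizontal axis) in clusters 0 to 6, shown where a gene had at least 50 UMIs in the cluster, with 95% conditional intervals and dashed lines at 2-fold. *F3* in macrophages lies at 6.11, *Thbd* and *Procr* in cluster 5 at -1.81 and -1.53, *Tfpi2* above 0 in each cluster shown, and *Tfpi* and *Plat* near 0.

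The 2 Kunitz-type inhibitors differed from each other. *Tfpi* (ENSRNOG00000005039) was spread over all clusters and differed little between the libraries. Over clusters 0 to 7 its control level ran from 44.3 CPM (37.2 to 52.3) in macrophages to 104 (88.2 to 122) in cluster 7. Its LPS level ran from 35.8 (28.8 to 44.1) in macrophages to 109 (92.6 to 126) in cluster 7. The small cluster 8 held 119 CPM (99.4 to 141) in control cells. Clusters 7 and 1 did not differ beyond counting error in either library, and neither did clusters 1 and 0. Cluster 7 stood at 1.15 times the level of cluster 0 (0.972 to 1.35) in control cells. In LPS cells it stood at 1.18 times (1.003 to 1.375), an interval that just left out 1. The ratios in clusters 0 to 7 lay between 0.808 and 1.04, and over all cells the ratio was 0.986 (0.961 to 1.01). The counting intervals left out 1 in cluster 5 (0.845, 0.716 to 0.998), cluster 4 (0.872, 0.774 to 0.982) and cluster 3 (0.856, 0.740 to 0.990). *Tfpi* in macrophages stood at 48.9% and 38.9% of its level in cluster 0, where the 7 fibroblast markers stood at 28.5% to 42.6% and 23.7% to 35.8%, and in endothelial cluster 5 at 79.4% and 66.1%, against markers at 21.3% to 33.2% and 16.99% to 43.8%.

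*Tfpi2* (ENSRNOG00000010513) was higher after LPS. In control cells it stood at 17.9 CPM (15.5 to 20.6) in cluster 4, 13.4 (10.2 to 17.4) in cluster 5 and 9.29 (7.44 to 11.5) in the pericyte-like cluster 2, with clusters 4 and 5 within counting error of each other. In LPS cells cluster 5 came first at 38.2 CPM (32.8 to 44.4), then cluster 4 at 29.0 (25.7 to 32.6) and cluster 2 at 14.8 (12.3 to 17.6). The ratio was 2.85 (2.10 to 3.92) in cluster 5, from 57 to 174 UMIs. It was 1.62 (1.35 to 1.95) in cluster 4 and 1.59 (1.20 to 2.12) in cluster 2, short of 2-fold.

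*Tfpi2* was also higher in LPS fibroblasts of cluster 0, at 1.77 CPM in control and 4.24 in LPS cells, with a ratio of 2.40 (1.98 to 2.92) from 160 and 313 UMIs. That was 13.2% and 11.1% of its level in cluster 5, against the endothelial markers at 2.66% to 8.92% and 2.71% to 11.5% given above, and the part of free RNA was not tested. Over all cells the ratio was 2.08 (1.87 to 2.32). After thinning, 4.29% (2.42 to 6.97) of control and 11.9% (9.04 to 15.3) of LPS cells in cluster 5 held a *Tfpi2* UMI, against 0.478% and 0.216% in cluster 3, where its mean level was lowest. In cluster 5 *Tfpi2* thus moved in the opposite direction to *Thbd* and *Procr*.

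**Figure D4:**
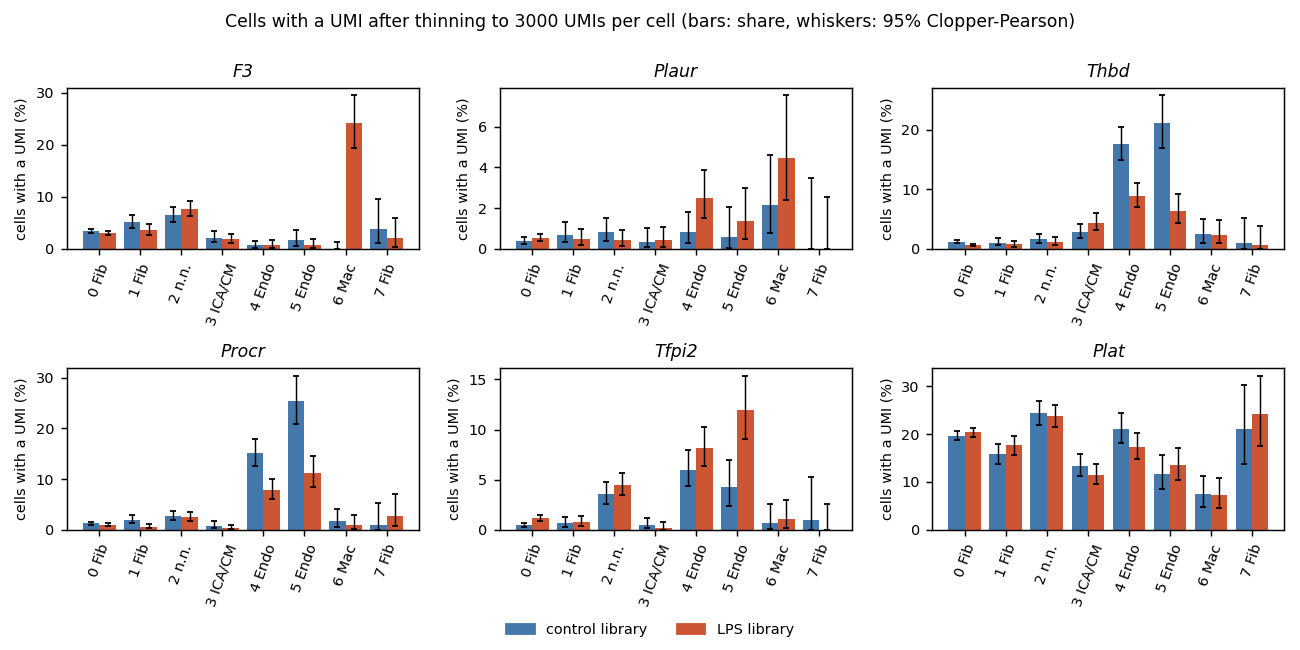
Percentage of cells with a UMI of *F3*, *Plaur*, *Thbd*, *Procr*, *Tfpi2* and *Plat* after thinning to 3000 UMIs per cell, in clusters 0 to 7 of the control and LPS libraries, with 95% Clopper-Pearson intervals. *F3* in macrophages goes from 0 of 281 cells to 24.1%, *Thbd* in cluster 5 from 21.1% to 6.42%, *Procr* from 25.4% to 11.2% and *Tfpi2* from 4.29% to 11.9%, while *Plat* in cluster 2 stands at 24.4% and 23.7%.

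Of the plasminogen activators, *Plat* (ENSRNOG00000019018) was found in every cluster at levels that hardly differed between the libraries. Among clusters 0 to 7, the pericyte-like cells held the most *Plat*. They stood at 97.4 CPM (91.2 to 104) in control and 96.6 (90.0 to 103) in LPS cells, with a ratio of 0.992 (0.901 to 1.09). In LPS cells cluster 7, at 89.5 CPM, lay within counting error of them. The small clusters 9 (111 and 122 CPM) and 10 (104 and 176 CPM) stood higher, from 15 to 50 UMIs per library. Fibroblasts of cluster 0 held 80.2 and 79.6 CPM, with a ratio of 0.993 (0.959 to 1.03), and macrophages had the lowest levels, 36.9 and 33.4 CPM. The ratio was 1.12 (1.04 to 1.20) in cluster 1 and 0.822 (0.741 to 0.911) in cluster 4, from 79.6 to 65.4 CPM. Over all cells it was 0.996 (0.969 to 1.02). In macrophages *Plat* stood at 46.0% and 41.9% of cluster 0, somewhat above the fibroblast markers there. In cluster 2 a thinned *Plat* UMI was found in 24.4% and 23.7% of the cells, at median depths of 6853.5 and 5117 UMIs.

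*Plau* (ENSRNOG00000010516) was close to absent from the counts. It had 42 UMIs in all control cells and 11 in all LPS cells, a ratio of 0.313 (0.145 to 0.619), and no cluster reached 50. Cluster 0 held 23 of the control UMIs and 4 of the LPS UMIs, and no other cluster more than 6 in a library. Clusters could not be ordered by it at this depth.

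*Plaur* (ENSRNOG00000037931), the receptor for urokinase, was higher in LPS macrophages. It went from 13 UMIs, or 4.17 CPM (2.22 to 7.14), to 37 UMIs, or 14.9 CPM (10.5 to 20.5), with a ratio of 3.57 (1.85 to 7.31). These UMIs just met the minimum of 50, and without the 8% of cells with the most UMIs they fell below it, at a log2 ratio of 1.86 against 1.83. In control cells macrophages and clusters 5 and 4 lay within counting error of each other, while LPS macrophages exceeded cluster 4, which had 6.16 CPM. The ratio was 1.63 (1.08 to 2.48) in cluster 4, 1.34 (1.03 to 1.74) in cluster 0 and 0.989 (0.481 to 2.04) in cluster 5, which had fewer than 50 UMIs. Over all cells it was 1.48 (1.24 to 1.76). After thinning, 2.14% (0.788 to 4.59) of control and 4.48% (2.41 to 7.54) of LPS macrophages held a *Plaur* UMI, with overlapping intervals, against 0.359% and 0.432% in cluster 3, where its mean level was lowest.

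Counted over the genes with at least 50 UMIs, the 8 genes differed by cluster. In macrophages 5 genes had enough UMIs, of which 2 (*F3* and *Plaur*) were at least 2-fold higher and 0 lower. Of all 6385 genes with 50 UMIs, 4.82% were higher and 12.3% lower. The median log2 ratio of the 5 genes was -0.15, against -0.31 over all genes. *F3*, with 9 control UMIs, and *Plaur*, with 13, met the minimum only through their LPS UMIs. A gene that low in control cells could enter the count only where it was higher in LPS cells. In cluster 5, 1 of 5 genes was higher (*Tfpi2*) and 2 lower (*Thbd* and *Procr*), with backgrounds of 4.24% and 4.56% and medians of -0.24 against -0.06. In cluster 0, 1 of 7 was higher (*Tfpi2*) and 0 lower, with backgrounds of 3.44% and 9.1% and medians of -0.01 against -0.13. None of the 7 genes with enough UMIs in cluster 4 passed 2-fold (backgrounds 2.65% and 4.08%, medians -0.20 against -0.09). The same was true of 7 in cluster 1 (3.23% and 5.09%), 6 in cluster 2 (2.86% and 4.28%), 4 in cluster 3 (1.7% and 1.69%) and 2 in cluster 7 (4.7% and 3.45%). In cluster 8 (2.48% and 1.67%) and cluster 9 (2.69% and 2.81%) 2 genes each had enough UMIs and none passed 2-fold, and in cluster 10 (3.52% and 0.971%) no gene had enough.

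A wider list of 44 genes of the 2 systems, 43 of them in the gene list, held clotting factors, inhibitors, thrombin receptors and plasminogen receptors. In macrophages 3 of the 13 with enough UMIs were higher and 1 lower, against 4.82% and 12.3% of all genes, with a median log2 ratio of 0.05 against -0.31. In cluster 4 it was 3 higher and 0 lower of 17, against 2.65% and 4.08% (median -0.07 against -0.09). In cluster 5 it was 3 and 1 of 15, against 4.24% and 4.56% (median -0.18 against -0.06). In cluster 0 it was 2 and 2 of 18, against 3.44% and 9.1% (median -0.12 against -0.13). *Serpinb2*, a urokinase inhibitor, went from 124 to 4248 UMIs in cluster 0 (ratio 42.0, 35.2 to 50.7), from 5 to 121 in cluster 4 and from 1 to 96 in macrophages. It was among the genes counted as higher in each of these clusters. Summed fibroblast markers stood in cluster 4 at 28.1% of cluster 0 in control and 22.1% in LPS cells. In macrophages they stood at 33.4% and 27.8%. The part of free fibroblast RNA in the *Serpinb2* UMIs of cluster 4 and macrophages was not tested.

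Of the protease-activated receptor genes on the list, *F2rl2* and *F2rl1* met the rule for named genes. *F2rl2*, a receptor that helps thrombin act on its partner receptor, was higher in LPS macrophages, from 18 to 142 UMIs (5.78 to 57.1 CPM, ratio 9.88, 6.03 to 17.2). *F2rl1*, the protease-activated receptor cleaved by trypsin-like proteases, was higher in cluster 4, from 18 to 55 UMIs, with a ratio of 3.49 (2.02 to 6.32). *F2r*, the main thrombin receptor, was outside the rule for named genes and was picked after its values were seen. Its ratio was 2.14 (1.72 to 2.68) in cluster 5, 1.51 (1.29 to 1.75) in cluster 4 and 0.735 (0.675 to 0.801) in cluster 0.

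The remaining named genes were *Sdc4*, *Gas6* and *Plg*. *Sdc4*, a heparan sulfate proteoglycan that binds antithrombin, had a ratio of 19.4 (17.5 to 21.7) in macrophages, from 118 to 2297 CPM, and of 5.63 (5.38 to 5.90) in cluster 0 and 4.69 (3.93 to 5.64) in cluster 4. *Gas6*, a vitamin K-dependent ligand related to protein S, went from 130 to 36.2 CPM in macrophages (ratio 0.278, 0.219 to 0.350). In cluster 0 it went from 194 to 86.3 CPM (ratio 0.446, 0.433 to 0.459). The summed fibroblast markers stood in macrophages at 33.4% and 27.8% of cluster 0. The part of free fibroblast RNA in the macrophage *Gas6* values was not tested. *Plg*, which encodes plasminogen, had 42 control and 11 LPS UMIs in cluster 0 (ratio 0.321, 0.149 to 0.635).

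**Figure D5:**
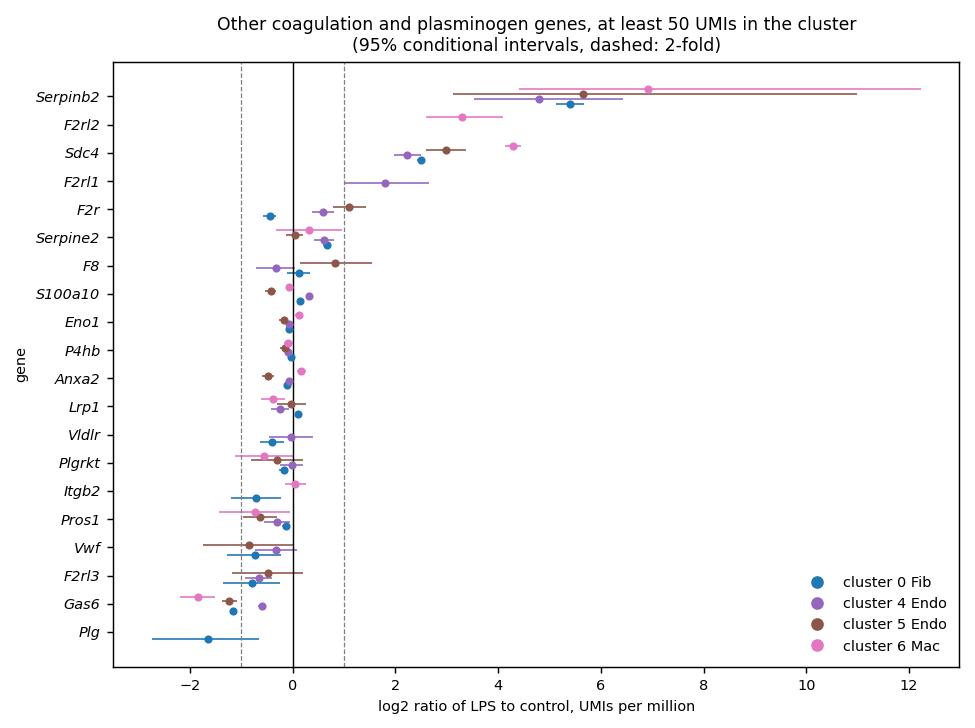
The log2 ratio of LPS to control (horizontal axis) of other coagulation and plasminogen genes (vertical axis) with at least 50 UMIs in the cluster, coloured by cluster, with 95% conditional intervals and dashed lines at 2-fold. *Serpinb2* and *Sdc4* lie to the right of 2-fold in clusters 0, 4, 5 and 6, and *Gas6* lies left of 0 in each of them. The part of free fibroblast RNA in the *Serpinb2* values of clusters 4, 5 and 6 was not tested.

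The genes with the most similar pattern were sought by Pearson correlation of log2(CPM + 1) over the 22 pairs of cluster and library, among 11303 genes. These points share libraries and depth, so the values are descriptions only. For *F3* the highest were *Phlda1* (0.69) and *Mcub* (0.67), which in macrophages went from 61.6 to 366 CPM and from 12.5 to 34.6 CPM. *Thbd* was closest to *Gngt2* (0.92) and RGD1310587 (0.91), and *Procr* to *Nos3* (0.90), the endothelial nitric oxide synthase, and *Tmem88* (0.89). In cluster 5 the ratios were 1.03 (0.9505 to 1.11) for *Gngt2*, 0.864 (0.795 to 0.940) for RGD1310587, 0.781 (0.693 to 0.880) for *Nos3* and 0.596 (0.528 to 0.672) for *Tmem88*, against the 0.285 of *Thbd* and the 0.347 of *Procr*. *Tfpi* was closest to *Txndc5* (0.86) and *Lox* (0.84), *Tfpi2* to *Jak1* (0.86) and *Procr* (0.83), *Plat* to *Plod3* (0.86) and *Cnpy4* (0.84), and *Plaur* to LOC100359668 (0.88) and *Nras* (0.86). With 53 UMIs in all, *Plau* gave *Zbtb47* (0.84) and *Uba2* (0.79), which at that count carry little weight.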

How the data were processed

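Cultured cells from trypsin-digested hearts of neonatal rats gave 2 single-cell libraries (10X Genomics 3′ kit), 1 per condition, grouped by the treatment label. The authors deposited raw UMI counts per gene and cell, and a cluster for each cell. The submitters' processing notes name Cell Ranger 2.2.0 and Seurat 2.3.4, and the study's methods describe clustering of both libraries together at a resolution of 0.5, so the clusters may depend on genes that respond to LPS. The genome build is not given in the sources used here. The 2 control and 8 LPS cells without a cluster were left out. They held 2 UMIs of the 8 genes, in LPS cells. The libraries held 152624585 and 127580475 UMIs.

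Counts were summed by cluster and library with pandas 2.3.3, scipy 1.17.1 and numpy 2.4.6 (Python 3.11.15), and drawn with matplotlib 3.10.9. Intervals are exact Poisson (levels), exact conditional (ratios) and Clopper-Pearson (shares). Where a cluster had 0 UMIs, 3 UMIs were taken as its upper limit. The random seed for thinning was 1. No doublet caller was run. Leaving out the 8% of cells with the most UMIs was an alternative, beside other filters on cells, scalings, folds, minimums and depths of thinning. Marker lists for fibroblasts, macrophages, endothelium, cardiomyocytes, ICA cells, pericytes, neutrophils and platelets were used. Further lists covered smooth muscle, mesothelium, lymphocytes, Schwann cells and dividing cells. *Pecam1* of the endothelial list and a lymphocyte marker were not matched. The procedure was tested on simulated Poisson counts per cluster, which lack the uneven spread of UMIs over cells.

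The members and lists were chosen with earlier results of these data known. Named genes were the 8 genes, the other listed genes with at least 50 UMIs and a 2-fold difference in cluster 0, 4 or 6, and for each member the 2 genes with the most similar pattern among genes with at least 200 UMIs. *Itgam* was not matched in the gene list, and 1 further gene of the wider list is not reported here. Promoters are from RefSeq.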

Additional observations from a re-analysis of the deposited data

Results flagged for a closer look

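*F3* had ratios of LPS to control on opposite sides of 1 in different clusters, with counting intervals that left out 1. It was 68.9 in the macrophages of cluster 6, against 0.767 in the fibroblasts of cluster 0 and 0.716 in the dividing fibroblasts of cluster 1. With 1 library per condition the difference between clusters was not tested.

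*Plat* did the same on a small scale, with a ratio of 1.12 in the dividing fibroblasts of cluster 1 and 0.822 in the endothelial cells of cluster 4. This difference was not tested either.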

How the results depend on the processing

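No paired analysis was possible because control and LPS were 1 library each. Alternative log2 ratios were taken in the cluster, out of clusters 0 to 7, where the gene's mean level was highest. Of these 56, 51 moved by less than the counting interval, and 5 by more. The 51 include *Plau* in cluster 3, with 4 and 1 UMIs. Its log2 interval of -7.25 to 1.71 is too wide for an alternative to count as moved. The sign changed for *Plat* in cluster 2, from -0.01 to 0.11 when centred on the median gene, 0.02 without the 8% of cells with the most UMIs and 0.00065 without shared barcodes, and in no other. Over these alternatives *Thbd* and *Procr* in cluster 5 lay between -2.12 and -1.07. With clusters 4 and 5 joined, the log2 ratios were -1.07 for *Thbd*, -1.07 for *Procr* and 0.94 for *Tfpi2*. Without cells of cluster 5 that held a macrophage marker UMI, *Procr* stood at -1.86 and *Tfpi2* at 1.04. That left 212 of 350 control and 330 of 443 LPS cells of cluster 5. In control cluster 5 *Mrc1* stood at 30.4% of its macrophage level, *Msr1* at 9.41% and the other macrophage markers at most at 2.47%. Whether the dropped cells were mixed was not tested. The similar filter on fibroblast markers left 4 control and 63 LPS macrophages. Of 56 alternative counts of genes past the fold and higher in LPS (counts of lower genes were not recomputed), 50 were within 1.5 times the value in the report. In clusters 1, 2, 3, 4 and 7 that value was 0, which a stricter fold or minimum could not change. At 1.5-fold the genes higher in LPS were 1 in cluster 2 and 2 in cluster 4, and at 3-fold 0 in clusters 0 and 5. In macrophages 1 was left with at least 200 UMIs, and 1 without the 8% of cells with the most UMIs, since *Plaur* fell below the minimum. Shares of cells depend on depth by construction. For each gene except *Plau* in that highest cluster, control share first and LPS share after it, the values were as follows. Thinned to 1500 UMIs, the shares were *F3* 0.712% and 16.5%, *Thbd* 12.9% and 2.93%, *Procr* 16.3% and 6.77% and *Tfpi* 15.4% and 13.9%. At 1500 UMIs they were *Tfpi2* 1.43% and 6.09%, *Plat* 12.1% and 13.2% and *Plaur* 0.712% and 1.72%. Thinned to 5000 UMIs, the shares were *F3* 1.51% and 29.5%, *Thbd* 28.2% and 11.6%, *Procr* 37.3% and 16.8% and *Tfpi* 33.7% and 41.4%. At that depth they were *Tfpi2* 6.90% and 17.1%, *Plat* 37.8% and 38.3% and *Plaur* 3.40% and 8.55%. Without thinning, the shares were *F3* 2.85% and 36.1%, *Thbd* 49.4% and 17.6%, *Procr* 59.1% and 28.7%, *Tfpi* 66.3% and 61.1%, *Tfpi2* 14.6% and 27.8%, *Plat* 48.1% and 38.5% and *Plaur* 4.63% and 11.3%. Depth limits *Plau* in every cluster and *Plaur* outside clusters 0, 1, 4 and 6.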

Other observations

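The 105 LPS macrophages with an *F3* UMI were set beside the 186 without one, a division made after the values were seen. Cells with *F3* were deeper, at a median of 7533 UMIs against 6482.5, and the median share of fibroblast marker UMIs was close, at 0.132% and 0.129%. Over summed UMIs that share was lower in cells with *F3*, at 0.242% against 0.330% in cells without. As UMIs per 1000000 UMIs, the level in cells with *F3* over that in cells without was 3.36 (2.25 to 5.11) for *Tnf*, 2.25 (2.13 to 2.38) for the growth factor gene *Csf3*, 2.08 (1.74 to 2.49) for *Il6* and 1.77 (1.72 to 1.82) for *Il1b*. For the macrophage markers it was 1.57 (1.22 to 2.02) for *C1qa*, 1.20 (1.08 to 1.34) for *Cd68*, 1.19 (1.11 to 1.27) for *Cd14* and 1.09 (0.678 to 1.74) for *Csf1r*. *Plaur* gave 1.64 (0.815 to 3.32), an interval that includes no difference. *Serpinb2* went the other way, with 10 UMIs in cells with *F3* and 86 in cells without (0.181, 0.0837 to 0.349). LPS fibroblasts of cluster 0 also held *Serpinb2*, and the part of fibroblast RNA in these UMIs was not tested. How the 86 UMIs were spread over cells is not given. The intervals treat UMIs as independent and cover counting error only, and these cells come from 1 library.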
